A study of Mus musculus with 4 samples.

Results

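Tubulins are the building blocks of microtubules, the hollow fibres along which heart muscle cells move cargo and which stiffen the cell as it contracts. The tubulin isotypes described here were 10 mouse genes, 5 encoding alpha tubulins (Tuba1a, Tuba1b, Tuba1c, Tuba4a and Tuba8) and 5 encoding beta tubulins (Tubb2a, Tubb2b, Tubb3, Tubb5 and Tubb6). Members were the probe sets, groups of short probes for 1 transcript, that the array annotation assigned to exactly 1 of these symbols. This gave 14 probe sets of 45037 on the array other than the manufacturer's controls. They covered 8 of the 10 genes, since Tuba1b and Tuba1c had no probe set with a single symbol. Probe sets were taken by symbol and by no measured value, but the genes were chosen with earlier results of these data known.

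The arrays measured RNA of HL-1 cells, an immortalised line of mouse atrial muscle cells that goes on beating and dividing in culture. In 2 samples the cells had received rapid electrical stimulation for 24 h at 300 beats per minute, a rate the labels put at 1.5 to 2 times that of the controls. In the 2 control samples they contracted spontaneously without stimulation. Both groups were grown to confluence in supplemented Claycomb medium, on coverslips coated with gelatin and fibronectin. No group was paced at the control rate, so the pacing itself and its speed cannot be told apart. HL-1 is a single cell line. The labels number the stimulated samples as experiments 1 and 2, and beyond that do not say whether samples of a group came from separate cultures, so the p-values speak only for variation among these 4 samples, and that variation may be technical.

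Alpha and beta tubulin pair as a dimer, and dimers add to and leave the ends of microtubules. The isotypes are nearly alike over most of their length and differ mainly in an acidic tail at the carboxyl end, where enzymes remove or restore a final tyrosine, add glutamates and so tune which motors and associated proteins bind. Cells also adjust tubulin messages to their pool of free dimers: when free tubulin rises, the factor TTC5 recognises the nascent protein on the ribosome and the message is degraded. In heart muscle, microtubules that lack the final tyrosine are known to be more stable and to resist contraction.

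Of the 14 probe sets, 11 of 6 genes had a mean that reached the filter level, the 40th percentile of all probe sets, which was 4.39 on the log2 scale. The remaining 3, both probe sets of Tubb2a and that of Tubb2b, lay below it and were not tested. A probe set is said to have passed, risen or fallen where its adjusted p in the limma fit was under 0.05. With stimulation 2 of the 11 rose and 0 fell. Among all 27022 probe sets tested, 2.46% rose and 1.38% fell. At an unadjusted p under 0.05 there were 4 of 11, both probe sets of Tuba8 being the other two, against 23.9% of all probe sets tested.

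Both rises belonged to Tuba4a, an alpha tubulin abundant in muscle, brain and platelets. Its protein ends without the final tyrosine that most alpha tubulins carry when newly made. Probe set 1417373_a_at read 11.70 and 11.54 in stimulated cells, against 10.70 and 10.36 in control cells, all on the log2 intensity scale. Both stimulated arrays lay above both control arrays, as for 25.3% of all probe sets tested. They did so by more than the arrays of a group differed from each other. The group means were 11.62 ± 0.11 in stimulated and 10.53 ± 0.24 in control cells (SD, n = 2 each). The change was 1.09 ± 0.16 (SE) on the log2 scale, a 2.13-fold higher intensity (limma, adjusted p = 0.034).

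The second Tuba4a probe set, 1417374_at, read 9.99 and 9.88 in stimulated cells, against 9.08 and 9.15 in control cells. Again the groups did not overlap, and the change was 0.82 ± 0.13 (SE), or 1.76-fold (limma, adjusted p = 0.0353). The third, 1417375_at, behaved differently. It read 6.54 and 6.33 in stimulated cells and 6.42 and 6.53 in control cells, so that the groups overlapped. Its change was -0.04, with a 95% confidence interval of -0.39 to 0.30 (limma, adjusted p = 0.904).

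Within each array, the first Tuba4a probe set exceeded the third by 5.16 and 5.21 in stimulated cells, against 4.28 and 3.83 in control cells. This gap was 1.14 wider in stimulated cells, and the groups did not overlap. The second probe set exceeded the third by 3.45 and 3.55 in stimulated cells, against 2.66 and 2.62 in control cells. The first exceeded the second by 1.72 and 1.66 in stimulated cells, against 1.62 and 1.21 in control cells. This last gap was 0.27 wider in stimulated cells, without overlap, but the control arrays differed from each other by more than that. With 2 arrays a group the smallest two-sided p of an exact permutation test is 0.333, and these gaps were not tested. All 3 probe sets carry the same symbol, and where in the transcript each one lies was not analysed here.

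The Tuba4a rise needed all 4 arrays to pass. With any 1 array left out, the change of 1417373_a_at lay between 0.92 and 1.26 and its adjusted p between 0.077 and 0.183. That of 1417374_at lay between 0.77 and 0.87, with adjusted p between 0.0789 and 0.19. With the mean of its 3 probe sets in place of single ones, Tuba4a rose by 0.62 (limma, adjusted p = 0.0386).

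**Figure D1:**
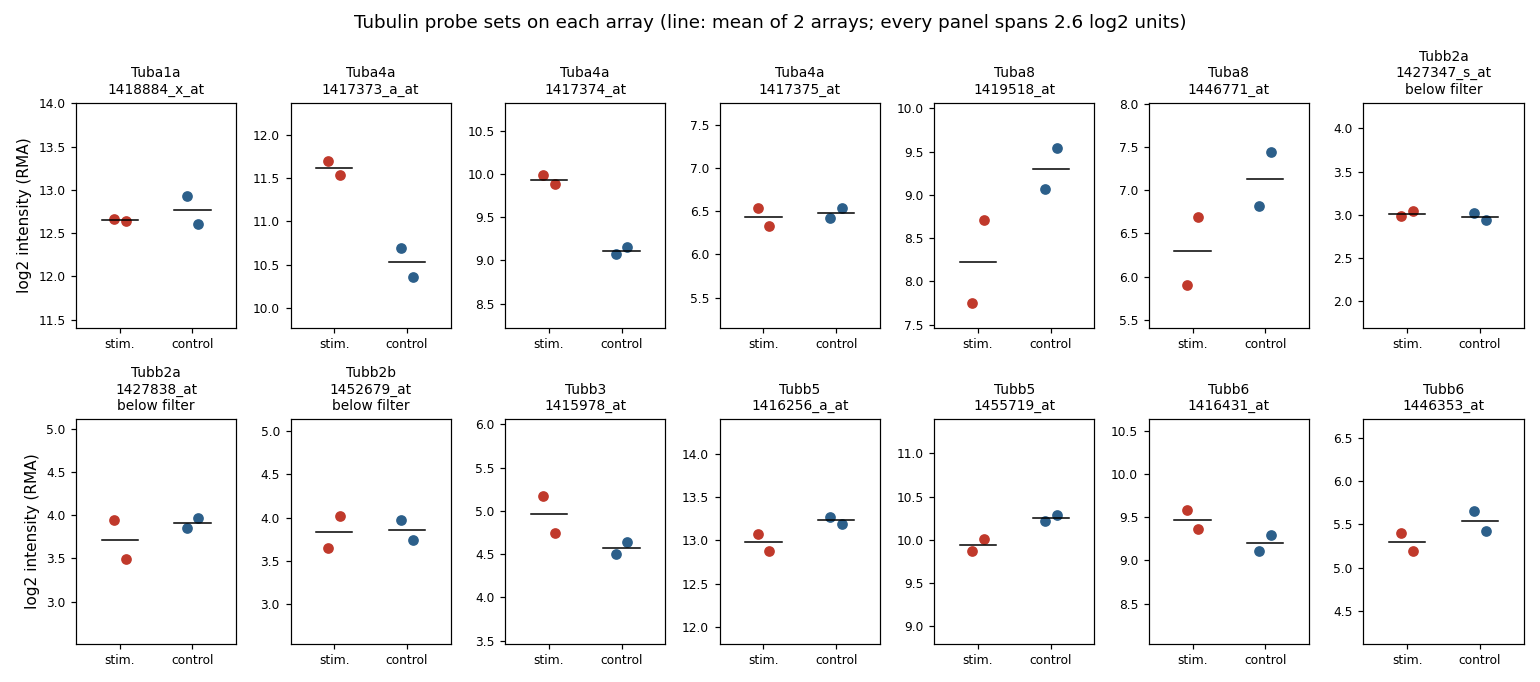
Log2 intensity (RMA) of the 14 tubulin probe sets, 1 panel each, with stimulated arrays in red on the left, control arrays in blue on the right and a line at each mean of 2 arrays. Every panel spans the same number of log2 units. Tuba4a 1417373_a_at and 1417374_at stand higher in stimulated cells, at means of 11.62 and 9.93, than in control cells, at 10.53 and 9.11, while both Tuba8 panels show wide scatter within groups.

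Tuba8, an alpha tubulin found mainly in heart, skeletal muscle and testis, ends in phenylalanine in place of tyrosine. It had the lowest changes of the family, though neither of its probe sets passed. Probe set 1419518_at read 7.75 and 8.71 in stimulated cells, against 9.06 and 9.55 in control cells. Its change was -1.08 ± 0.33 (SE), with a 95% confidence interval of -1.89 to -0.26 (limma, unadjusted p = 0.0178, adjusted p = 0.125).

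Probe set 1446771_at of Tuba8 read 5.90 and 6.69 in stimulated cells, against 6.82 and 7.44 in control cells. The change was -0.84 ± 0.31 (SE), with a 95% confidence interval of -1.61 to -0.07 (limma, unadjusted p = 0.0375, adjusted p = 0.181). On both probe sets the groups did not overlap, with stimulated arrays lower, as for 28.8% of all probe sets tested. The lowest array on both was stimulated 1. The gap between arrays of a group was wide, with SDs of 0.68 in stimulated and 0.34 in control cells for 1419518_at. Without stimulated 1 the changes were -0.60 and -0.44, and without stimulated 2 they were -1.56 and -1.23.

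Other atrial genes, picked after their values were seen, were also lowest on stimulated 1. Myh6, the main atrial myosin heavy chain, read 11.25 and 12.19 in stimulated cells, against 12.70 and 12.79 in control cells. Sln, an atrial inhibitor of the calcium pump, read 4.94 and 6.46 in stimulated cells, against 7.06 and 7.91 in control cells. Of 10 atrial muscle markers tested, 1 rose (Nppa), 1 fell (Ryr2) and 9 had a negative change, with a median of -0.32. Among all 13058 genes tested, 3.01% rose, 1.05% fell and 6644 had a negative change, with a median of -0.01. The Ryr2 call lay close to the threshold (limma, adjusted p = 0.0498). Another Ryr2 probe set changed by -0.68 and did not pass (limma, adjusted p = 0.233). A dimmer Myh6 probe set fell by 2.89 (limma, adjusted p = 0.02) and passed in 2 of the 4 fits with an array left out, whereas Nppa passed in 1 and Ryr2 in 0 of these fits. The part of these genes in the Tuba8 values was not tested, and fewer cells of a type and less RNA per cell cannot be told apart in these bulk samples.

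**Figure D2:**
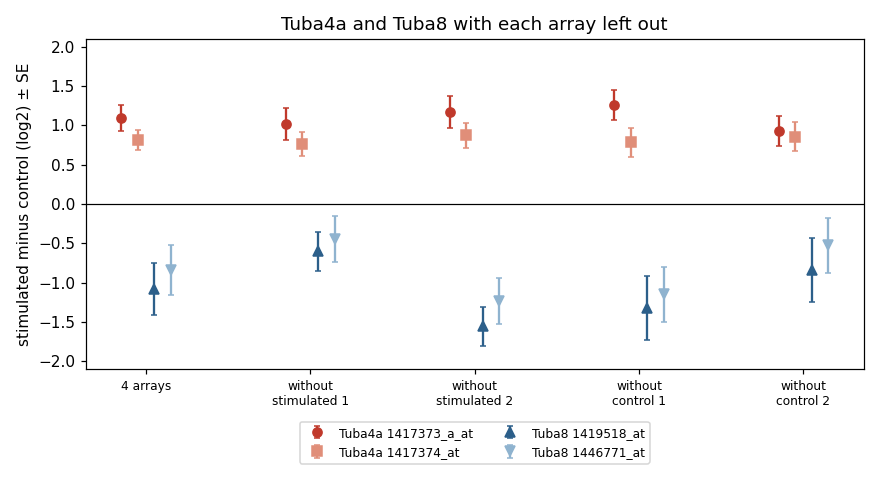
Change of 2 Tuba4a and 2 Tuba8 probe sets (stimulated minus control, log2, with standard error) in the fit of all 4 arrays and in the 4 fits that each leave out 1 array. The Tuba4a changes stay between 0.77 and 1.26, and the Tuba8 changes range from -1.56 to -0.44.

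The 250 bases before the annotated transcription start are shown for Tuba4a, the gene that rose, and Tuba8, the alpha tubulin with the lowest changes, so that the sequences next to their starts can be read side by side. They come from RefSeq on mouse build GRCm38.p6 and were found for 8 of the 10 genes. Tuba4a lies at chr1:75219295-75219544 on the minus strand and Tuba8 at chr6:121210484-121210733 on the plus strand, both printed 5′ to 3′ on the gene's strand. Capitals mark GC boxes (GGGCGG on either strand) in Tuba4a and an E-box (CACGTG) in Tuba8.
Tuba4a: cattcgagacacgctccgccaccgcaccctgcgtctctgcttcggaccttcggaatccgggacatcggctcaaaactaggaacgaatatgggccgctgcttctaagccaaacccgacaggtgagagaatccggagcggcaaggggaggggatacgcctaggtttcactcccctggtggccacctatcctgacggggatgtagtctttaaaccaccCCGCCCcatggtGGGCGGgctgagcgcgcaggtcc
Tuba8: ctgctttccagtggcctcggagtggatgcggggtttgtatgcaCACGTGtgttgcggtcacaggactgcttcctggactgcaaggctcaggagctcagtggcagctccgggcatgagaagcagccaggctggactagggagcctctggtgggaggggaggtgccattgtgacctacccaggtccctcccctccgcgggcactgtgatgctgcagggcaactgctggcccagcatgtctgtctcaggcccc

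The Tuba4a window held 2 GC boxes, from base 35 to 30 and from base 23 to 18 before the start, and 32.7% of all 32851 promoter windows held at least 1. The Tuba8 window held the E-box from base 207 to 202 before the start, a motif found in 6.02% of windows. Both windows were also searched on both strands for a heat shock element (GAANNTTC or TTCNNGAA, in 12.8% of windows), an AP-1 site (TGANTCA, 6.75%), a cyclic AMP response element (TGACGTCA, 1.55%) and an ATF4 composite element (TGATGNAA, 3.45%). These letters did not occur in either window. Among the other members with a promoter, heat shock letters occurred in those of Tuba1c and Tubb5, the cyclic AMP response element in that of Tubb2a and the ATF4 letters in that of Tubb3. GC boxes also occurred in those of Tuba1a, Tuba1b, Tubb2a and Tubb3, and the E-box in that of Tubb5. A match describes letters, not a site in use.

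The neighbours of Tuba4a on its chromosome differed from each other: Dnajb2 rose, as Tuba4a did, and Stk16 and Glb1l gave no call. Stk16, a kinase gene whose annotated span overlaps that of Tuba4a, read 8.52 and 8.65 in stimulated cells and 8.49 and 8.57 in control cells, a change of 0.05 ± 0.13 (SE; limma, adjusted p = 0.856). Dnajb2, which encodes a cochaperone of Hsp70 and is the second protein-coding gene on the other side, read 9.63 and 9.93 in stimulated cells, against 8.58 and 8.67 in control cells. It rose by 1.15 ± 0.15 (SE; limma, adjusted p = 0.0284). Glb1l, which lies beyond Stk16, changed by -0.38 (limma, adjusted p = 0.202). Usp18 next to Tuba8, an enzyme that removes the ubiquitin-like protein ISG15, had a value of -0.84 that did not pass (limma, adjusted p = 0.0937). On the other side of Tuba8, Pex26 changed by 0.11 and Mical3 beyond it by -0.18. Slc6a13, beyond Usp18, changed by 0.24, and none of these passed.

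The genes whose values over the 4 arrays lay nearest to those of Tuba4a 1417373_a_at, each centred on its own mean, were Arl14ep, Zcchc7 and Phgdh. Distances were Euclidean, in log2 units over 4 arrays, and came to 0.041, 0.044 and 0.077. Zcchc7 is part of a complex that marks nuclear RNA for decay, and Phgdh is the first enzyme of serine synthesis. Phgdh read 12.05 and 11.94 in stimulated cells, against 11.14 and 10.72 in control cells. With 4 arrays such likeness holds mostly the shared direction and size of the change.

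The alpha tubulins that most cells use in bulk gave no call. Tuba1a, the main alpha tubulin of developing neurons, had 1 member probe set, 1418884_x_at. It read 12.67 and 12.64 in stimulated cells and 12.93 and 12.60 in control cells. The groups overlapped, and the change of -0.11 had a 95% confidence interval of -0.49 to 0.27 (limma, adjusted p = 0.73). The x in this identifier is the manufacturer's mark for probes that can also bind other transcripts, here among near-identical genes, so this value may hold signal of its relatives.

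For Tuba1b and Tuba1c, which are used widely in dividing and growing cells, the annotation pairs each probe set with a pseudogene, so these are not members. The probe set assigned to Tuba1b and Gm5620 read 13.74 and 13.56 in stimulated cells and 13.75 and 13.69 in control cells. That assigned to Tuba1c and Gm6682 with the identifier 1416128_at read 7.03 and 6.99 in stimulated cells and 7.26 and 7.13 in control cells. Their changes were -0.07 and -0.19 (limma, adjusted p = 0.815 and 0.448). A brighter probe set of Tuba1c and Gm6682, 1448232_x_at, changed by -0.05, and its groups overlapped (limma, adjusted p = 0.868). It and the Tuba1b probe set carry the x mark described for Tuba1a. In all 5 probe sets named a member together with another gene. One, shared by Tubb2b and a pseudogene, lay below the filter, and 0 of the others passed.

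Among the beta tubulins, Tubb5 encodes the isotype found in nearly all cells and abundant in dividing ones. Its probe set 1416256_a_at read 13.07 and 12.88 in stimulated cells, against 13.28 and 13.19 in control cells. The other, 1455719_at, read 9.87 and 10.01 in stimulated cells, against 10.21 and 10.29 in control cells. Stimulated arrays were below control arrays on both, as for 28.8% of all probe sets tested. The changes were -0.26 and -0.31, and neither passed (limma, adjusted p = 0.323 and 0.224). The 95% confidence intervals were -0.59 to 0.08 and -0.63 to 0.01.

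Tubb6, a beta tubulin expressed broadly at low levels and raised in regenerating or dystrophic mouse muscle, gave 2 probe sets of opposite sign. Probe set 1416431_at read 9.58 and 9.36 in stimulated cells, against 9.11 and 9.30 in control cells, a change of 0.26 with a 95% confidence interval of -0.10 to 0.63. The dimmer 1446353_at read 5.40 and 5.19 in stimulated cells, against 5.66 and 5.43 in control cells, a change of -0.25 with an interval of -0.62 to 0.13. Neither passed (limma, adjusted p = 0.343 and 0.394), so no direction is given for Tubb6.

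Tubb3, the beta tubulin used as a marker of neurons, lay just above the filter level. It read 5.18 and 4.74 in stimulated cells, against 4.50 and 4.64 in control cells. The groups did not overlap, as for 54.1% of all probe sets tested. The change of 0.39 had a 95% confidence interval of -0.05 to 0.83 (limma, adjusted p = 0.255). Of 10 neuron markers, 5 reached the filter level and 0 passed. Their median level was 4.55 in stimulated and 4.61 in control cells.

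Tubb2a and Tubb2b, sister beta tubulins best known from brain, lay below the filter. Of Tubb2a, 1427838_at read 3.94 and 3.49 in stimulated cells and 3.85 and 3.97 in control cells, and 1427347_s_at read 2.99 and 3.04 in stimulated cells and 3.03 and 2.94 in control cells. Tubb2b read 3.65 and 4.01 in stimulated cells and 3.97 and 3.74 in control cells. The groups overlapped on all 3. These intensities give no detection call, and a low reading here is not evidence that the genes are silent.

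**Figure D3:**
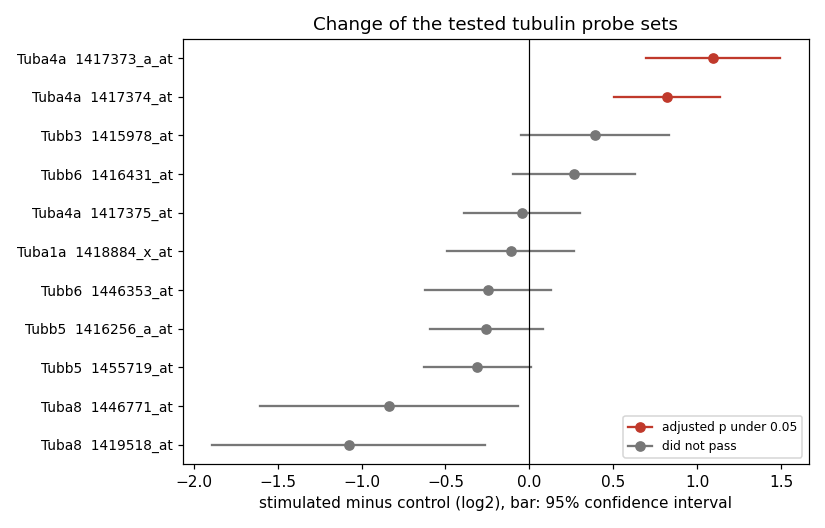
Change of the 11 tested tubulin probe sets (stimulated minus control, log2) with 95% confidence intervals, in red where the adjusted p was under 0.05. The 2 red points are Tuba4a at 1.09 and 0.82, and the lowest points are Tuba8 at -1.08 and -0.84.

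Over the 11 tested probe sets the median change was -0.11, with 4 positive and 7 negative, against a median of -0.02 over all probe sets tested. The groups did not overlap on 9 of them, 4 higher and 5 lower in stimulated cells, and among all probe sets tested this held for 54.1%, made up of 25.3% higher and 28.8% lower in stimulated cells. The family thus had no common direction. Where a gene had more than 1 tested probe set, Tuba8 and Tubb5 had the same sign on both, while Tuba4a and Tubb6 did not.

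The wider microtubule system was described through 6 lists with 167 genes, each gene by its probe set with the highest mean. Of these, 154 had a probe set and 146 were tested. Only 2 passed, or 1.37% of those tested, both in the list of associated proteins, against 4.06% over all genes (3.01% higher and 1.05% lower).

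The other tubulins and nucleation genes, which include gamma tubulin and the complexes that start new microtubules, had 0 of 23 passing, with a median change of -0.06. Tubb4b, the beta tubulin that accompanies Tubb5 in most cells, read 10.78 on both stimulated arrays, against 11.14 and 11.11 on control arrays. Its change was -0.35 (limma, adjusted p = 0.162). Its other 3 tested probe sets changed by -0.38 to -0.18. Haus7, of the augmin complex that branches microtubules, changed by -0.46 (limma, adjusted p = 0.108).

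Folding genes encode prefoldin, the chaperonin that folds new tubulin and actin, and the cofactors that join alpha to beta. None of the 22 passed, 7 had an unadjusted p under 0.05, against 24.6% of all genes, and their median change was 0.15, against -0.01 over all genes. Among these probe sets of highest mean, closest to passing were the chaperonin subunits Cct4 (0.50, adjusted p = 0.0837) and Cct2 (0.51, adjusted p = 0.0894), both by limma. This Cct4 probe set, 1433447_x_at, carries the x mark described for Tuba1a. It read 12.23 and 12.18 in stimulated cells, against 11.70 and 11.72 in control cells. Other tested probe sets changed by 0.20 to 0.56 for Cct4 and by 0.44 and 0.39 for Cct2, and none passed. All 8 chaperonin subunits had a positive change, between 0.07 and 0.51, and on 7 of them the stimulated arrays lay above the control arrays, as they did for 27.6% of all genes, though 0 passed. The chaperonin was singled out after the values were seen.

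Of the genes behind tubulin autoregulation, 0 of 5 passed, and 0 reached an unadjusted p under 0.05, against 24.6% of all genes. Ttc5, the factor that recognises nascent tubulin, read 7.79 and 7.78 in stimulated cells, against 8.05 and 8.12 in control cells. Its change was -0.30 (limma, adjusted p = 0.216). Cnot7, a deadenylase of the CCR4-NOT complex that degrades the message, changed by -0.30 (limma, adjusted p = 0.236), with -0.76 and -0.36 on its other probe sets.

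Enzymes that modify tubulin gave 0 calls among 20, with 1 at an unadjusted p under 0.05, against 24.6% of all genes. Their median change was -0.05. The gene under 0.05 was Ttll12, a member of the tyrosine ligase-like family, at 0.33 (limma, adjusted p = 0.188), against -0.04 for its second probe set. Agbl3, a carboxypeptidase that trims glutamates, changed by -0.32 (limma, adjusted p = 0.233). Enzymes of the final tyrosine and of acetylation were picked for their role after the values were seen. Ttl, which restores the tyrosine, changed by 0.15. Svbp, the partner of the vasohibins that remove it, changed by -0.17 and the vasohibin Vash2 by -0.05. Hdac6, which deacetylates tubulin, read 10.10 and 10.17 in stimulated cells and 10.18 on both control arrays, a change of -0.05 (limma, adjusted p = 0.873). Sirt2, another deacetylase, changed by 0.03. Atat1, the acetyltransferase, read 5.92 and 6.55 in stimulated cells, against 6.77 and 6.58 in control cells. Its change of -0.44 did not pass (limma, adjusted p = 0.299).

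Among 41 microtubule-associated and dynamics genes 1 rose and 1 fell, against 3.01% and 1.05% of all genes. An unadjusted p under 0.05 was reached by 14, against 24.6% of all genes, and the median change was -0.04. Stmn4, a stathmin, one of a family that binds free dimers and promotes disassembly, read 7.21 and 8.42 in stimulated cells, against 5.57 and 5.45 in control cells. It rose by 2.31 ± 0.37 (SE), or 4.95-fold (limma, adjusted p = 0.0369), though the stimulated arrays differed by over a log2 unit. Kif2c, a kinesin that takes microtubule ends apart during mitosis, read 8.30 and 8.41 in stimulated cells, against 9.20 and 9.31 in control cells. It fell by 0.90 ± 0.13 (SE; limma, adjusted p = 0.0323), and 2 of its other probe sets fell by 1.14 and 1.11, while the dimmest changed by -0.05.

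Fign, a severing enzyme, changed by -1.03 (limma, adjusted p = 0.0605), and its other probe set by -1.26. Clasp1, which stabilises growing ends, changed by -0.76 on its brightest probe set (limma, adjusted p = 0.0985). Another Clasp1 probe set, 1427353_at, read 5.44 and 5.11 in stimulated cells, against 6.68 and 7.09 in control cells, and fell by 1.61 (limma, adjusted p = 0.0264).

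Motor genes, the kinesins and dynein with its regulators, gave 0 calls among 35, with 12 at an unadjusted p under 0.05, against 24.6% of all genes, and a median change of -0.05. Ndel1, a dynein regulator, read 10.90 and 11.13 in stimulated cells, against 10.29 and 10.32 in control cells. Its change of 0.71 did not pass (limma, adjusted p = 0.0518), while its dimmer probe set rose by 1.25 (limma, adjusted p = 0.0331). Kif13a, a kinesin of endosomal transport, changed by -0.73 (limma, adjusted p = 0.0554). Of its other 4 tested probe sets 3 fell, by 0.93, 0.86 and 0.83.

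Stmn4 passed in 1 of the 4 fits with an array left out, the one without stimulated 1, and its change ranged from 1.70 to 2.91. The called probe sets of Kif2c, Clasp1, Ndel1 and Kif13a passed in 0 of the 4, as did Dnajb2, and each kept its direction, with Kif2c 1437611_x_at between -0.95 and -0.84 and Dnajb2 between 1.00 and 1.31.

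**Figure D4:**
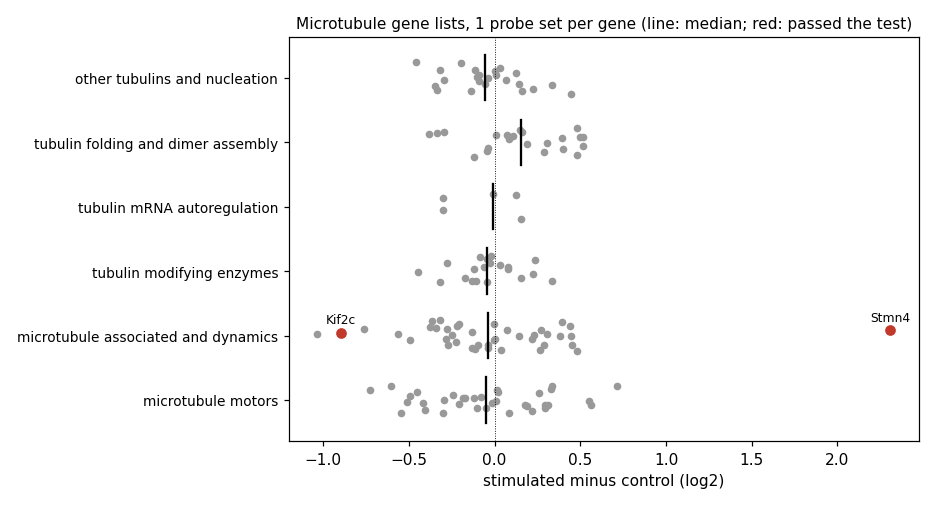
Change (stimulated minus control, log2) of each tested gene in the 6 microtubule lists, 1 probe set per gene, with a line at each list's median and red where the adjusted p was under 0.05. Only Stmn4, at 2.31, and Kif2c, at -0.90, are red, and the medians lie between -0.06 and 0.15.

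The 10 atrial muscle markers had a median level of 12.58 in stimulated and 12.72 in control cells, but ranged widely. Myl7 read 13.45 and 13.72 in stimulated cells and 13.85 and 13.84 in control cells, whereas Sln read as low as 4.94 on stimulated 1. Markers of endothelium reached the filter level in 1 of 6 cases and those of fibroblasts in 4 of 8, with 0 calls, and all fibroblast values were at most 7.55. That value was of Col1a1, which read 5.49 and 7.14 in stimulated cells and 5.51 and 7.55 in control cells. Smooth muscle markers had 0 calls among 4, with Tagln at 12.48 and 12.91 in stimulated cells and 11.49 and 12.10 in control cells. Their median change was -0.15, and Smtn and Myocd had changes of -0.60 and -0.82, against 0.90 for Tagln and 0.30 for Cnn1. Of 6 leukocyte markers Cd68 rose by 2.08 (limma, adjusted p = 0.0232). It read 6.34 and 6.59 in stimulated cells, against 4.07 and 4.70 in control cells. With 1 array left out its change lay between 1.76 and 2.39. Ptprc, the pan-leukocyte marker, stayed below the filter at 3.04 to 3.51 on all arrays. The part of these markers in the tubulin values was not tested.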

How the data were processed

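The authors deposited log2 values, made with RMA per the submitters' processing notes, for 4 Affymetrix arrays hybridised with biotin-labelled RNA. The RMA version and settings are not given in the sources used here. RMA compresses changes near the ends of its range, and array medians lay between 4.96 and 5.01. Precision is limited by having 2 arrays a group. Of 45101 probe sets 64 were controls. The annotation gave 34945 probe sets 1 symbol, 932 several and 9160 none. From these values, the 27022 probe sets whose mean reached the 40th percentile were fitted with limma 3.58.1 in R 4.3.3 with group as the only term, moderated across probe sets, two-sided, and adjusted by Benjamini-Hochberg over all of them at 0.05. The fit was tested on simulated data. Alternatives were no filter, a 60th percentile filter, median centring, 1 probe set or the mean per gene, a variance trend, each array left out, and the replicate number as a block.

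Members and lists were chosen with earlier results of these data known. Named were all members, up to 6 called genes per list plus the 2 smallest p among the rest, and the 3 genes nearest in pattern to the tubulin probe set of smallest p. Other genes were named after their values were seen. List genes had their probe set of highest mean. RefSeq tables of GRCm38.p6 gave symbols, gene order and promoters.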

Additional observations from a re-analysis of the deposited data

How the results depend on the processing

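The count of 2 risen tubulin probe sets held without a filter, with the 60th percentile filter, with median centring, with a variance trend and with the replicate block. With 1 probe set per gene, or the mean of a gene's probe sets, it was 1, Tuba4a, since each gene then counts once. With 1 array left out it was 0 in each of the 4 fits, in which the count over all probe sets lay between 7 and 114, against 1039 with 4 arrays; these fits have fewer arrays. Leave-one-out values of the Tuba1a probe set lay between -0.27 and 0.0485 and those of Tuba4a 1417375_at between -0.15 and 0.0638, so that neither kept its sign. With the replicate number as a block 2040 probe sets passed, and 2 tubulin probe sets fell, those of Tuba8 (-1.08 and -0.84, both adjusted p = 0.0322 by limma), in place of 0. The number of 1 control was given in accession order, so the numbers are not known to pair the samples. Same-numbered arrays deviated together with r = 0.31 over probe sets. Of the 112 values of single probe sets under an alternative, 99 kept their direction and their side of the threshold, 8 lost their call, 2 gained one and 3 changed sign; the cause was not tested. Probe sets near the bottom of the range, Tubb2a, Tubb2b and Tubb3, are limited by signal over background, which these files do not give.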
